A study of Homo sapiens with 12 samples.

Results

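SEMA3C, NRP1, L1CAM, ROBO3, NGFR and PTPRZ1 are genes best known from the wiring of the nervous system, where they encode a guidance cue, its receptor, cell adhesion molecules and receptors for growth factors. They were read here as the 6 rows of the deposited count table with these symbols, of 25382 rows in all, and all 6 passed the low-count filter that kept 15437 genes. L1CAM, ROBO3 and PTPRZ1 were selected on their fold changes between stiff-to-soft and soft-to-soft, and all 6 were chosen with the fold changes of every comparison known. Values in every comparison below are therefore a description of genes picked with such values known. They carry no independent test, whether against soft-to-soft or between other conditions.

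The cells were Cal27, an epithelial line derived from a squamous cell carcinoma of the human tongue, with the genotype given as WT in every library. Conditioning took 5 days and replating 1 day on collagen-coated polyacrylamide gels, and every replating was on soft gels of 0.48 kPa. In stiff-to-soft, conditioning was on a gel of 20 kPa. In LPA-to-soft, it was on a soft gel with lysophosphatidic acid (LPA), a signalling lipid with receptors of the G protein-coupled kind. In LPA-to-FAKi, conditioning was the same and an inhibitor of focal adhesion kinase (FAK) was present at replating. In soft-to-soft, it was on a soft gel with no agent. The study asks what cells keep of their conditioning, and its design groups stiff-to-soft and LPA-to-soft as having learned, against LPA-to-FAKi and soft-to-soft. Each condition had 3 libraries, numbered 1, 2 and 3, from a single cell line. The labels do not say whether replicates were separate cultures, and the p-values then reflect only how far these libraries spread, which may be technical.

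Class 3 semaphorins such as SEMA3C are secreted cues that steer growing axons and migrating cells. They bind neuropilins such as NRP1, which pair with plexins to signal. L1CAM is an immunoglobulin-family adhesion molecule that binds itself and integrins, and ROBO3 is a Roundabout receptor that lets commissural axons cross the midline. NGFR, also called p75NTR, is a neurotrophin receptor that also marks basal cells of stratified epithelia. PTPRZ1 is a receptor tyrosine phosphatase whose ligands include pleiotrophin and midkine.

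Total counts ran from 62953957 to 122311183 per library. Replicates 1 and 2 of soft-to-soft stood apart, as 42.9% and 42.2% of their counts from 1 to 19 were even numbers, where the other 10 libraries had 96.8% to 97.8%. The raw counts of these replicates, and so their totals, may thus be on another scale than those of the other 10. The reason was not tested. Markers were those of squamous epithelium, with 10 of 10 listed genes at 1 CPM or more on average and KRT5 at 4296 CPM. Of 10 neuronal markers STMN2, RBFOX3, ELAVL4 and DCX had no count in any library, and among Schwann cell and neural crest markers S100B had none and SOX10 had at most 1. Others on these lists were present, with means of 28.7 CPM for TUBB3, 6.76 CPM for SYT1, 4.73 CPM for MAP2, 3.14 CPM for NEFL, 73.3 CPM for ERBB3 and 46.7 CPM for MBP. The summed Schwann cell and neural crest markers took 118 to 128 CPM in stiff-to-soft, 116 to 130.5 CPM in LPA-to-soft, 105 to 136 CPM in LPA-to-FAKi, and 98.8 to 137 CPM in soft-to-soft. The summed neuronal markers took 39.8 to 46.3 CPM in stiff-to-soft, 39.3 to 41.5 CPM in LPA-to-soft, 38.9 to 44.1 CPM in LPA-to-FAKi, and 42.3 to 54.0 CPM in soft-to-soft. Those of squamous epithelium took 6121 to 11576 CPM in stiff-to-soft, 7436 to 12190 CPM in LPA-to-soft, 7366 to 12734 CPM in LPA-to-FAKi and 9519 to 14066 CPM in soft-to-soft. Their part in the results below was not tested.

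The promoters of L1CAM and ROBO3, which were both highest in stiff-to-soft, and of PTPRZ1, which was lowest in the stiff-to-soft and LPA-to-FAKi conditions, are shown as the 250 bases before the farthest upstream of the transcript starts in the RefSeq windows used (GRCh38.p14). Of the 6 genes, 4 had such a window, SEMA3C being the other. The L1CAM window is chrX:153876015-153876264 on the minus strand, that of ROBO3 chr11:124865182-124865431 on the plus strand, and that of PTPRZ1 chr7:121872911-121873160 on the plus strand. The L1CAM window lies inside the GENCODE 29 gene, whose upstream end is at 153886174. The windows of ROBO3 and PTPRZ1 run past the upstream ends of their GENCODE 29 genes, at 124865386 and 121873089.
L1CAM: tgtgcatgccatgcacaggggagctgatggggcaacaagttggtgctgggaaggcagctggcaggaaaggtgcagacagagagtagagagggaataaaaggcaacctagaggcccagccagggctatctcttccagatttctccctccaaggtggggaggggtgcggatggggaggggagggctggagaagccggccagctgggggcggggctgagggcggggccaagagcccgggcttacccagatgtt
ROBO3: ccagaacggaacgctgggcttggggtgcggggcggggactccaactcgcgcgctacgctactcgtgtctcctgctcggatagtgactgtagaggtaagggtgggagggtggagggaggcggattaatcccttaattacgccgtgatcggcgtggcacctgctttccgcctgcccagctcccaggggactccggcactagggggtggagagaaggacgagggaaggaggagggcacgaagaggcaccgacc
PTPRZ1: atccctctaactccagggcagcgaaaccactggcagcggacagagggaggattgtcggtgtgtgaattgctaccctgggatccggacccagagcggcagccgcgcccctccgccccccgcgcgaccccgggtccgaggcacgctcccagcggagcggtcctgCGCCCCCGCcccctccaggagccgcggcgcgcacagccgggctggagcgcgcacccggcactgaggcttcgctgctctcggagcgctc
Capitals mark a match to the EGR1 motif GCGNGGGCG, read on the opposite strand and beginning 88 bases before the RefSeq start, not the GENCODE one. The windows were searched on both strands for this motif, for the AP-1 motif TGANTCA, for the TEAD motif GGAATG and for the CArG box bound by SRF. The 4 windows held no other match. The background was 35116 RefSeq windows, counting every window of a gene and not only the farthest upstream. Of these 8.41% held the EGR1 motif, 6.57% the AP-1 motif, 11.9% the TEAD motif and 1.16% the CArG box. A match describes letters and not a bound site. The GC content was 62.8% for L1CAM, 64.4% for ROBO3 and 73.2% for PTPRZ1, against 36.4% for SEMA3C.

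Levels are CPM, the gene's count scaled to the library's total, after TMM scaling. Set per kilobase of exon from GENCODE 29, so that genes can be compared, the mean level over the 12 libraries was 9.92 CPM per kb for NGFR, 4.20 CPM per kb for SEMA3C, 2.14 CPM per kb for PTPRZ1, 0.775 CPM per kb for NRP1, 0.692 CPM per kb for L1CAM and 0.123 CPM per kb for ROBO3. NGFR thus had the most reads for its length and ROBO3 the fewest. Fold changes below are edgeR log2 fold changes ± SE from a model that holds replicate number as a block. The SE was derived as the size of the log2 fold change divided by the square root of the F statistic of its test. A gene is called where the Benjamini-Hochberg adjusted p over all genes tested is under 0.05.

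**Figure D1:**
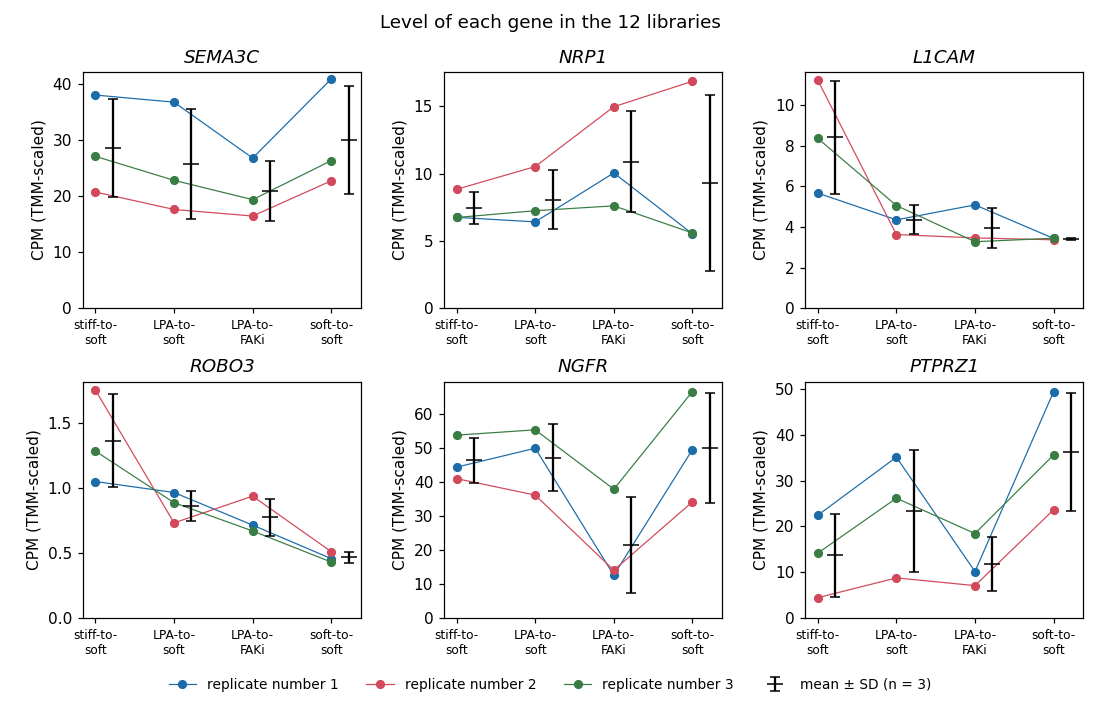
Level of each gene in CPM (linear axes from 0) by condition, with points joined by replicate number and black bars for the mean ± SD of 3 libraries. L1CAM and ROBO3 lie highest in stiff-to-soft, PTPRZ1 lies highest in soft-to-soft within every number, and NGFR and SEMA3C lie lowest in LPA-to-FAKi within every number.

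L1CAM was highest in stiff-to-soft. It stood at 5.67, 11.2 and 8.37 CPM in replicates 1, 2 and 3 of stiff-to-soft, against 3.44, 3.37 and 3.45 CPM in those of soft-to-soft. Under LPA-to-soft it had 4.35, 3.63 and 5.06 CPM and under LPA-to-FAKi 5.09, 3.46 and 3.28 CPM. Every stiff-to-soft library lay above all other 9, and the soft-to-soft libraries lay within 0.1 CPM of each other. The mean was 8.42 ± 2.78 CPM in stiff-to-soft, against 3.42 ± 0.0430 CPM in soft-to-soft (SD, n = 3 each), with a log2 fold change of 1.30 ± 0.255. It stood just outside the threshold there (edgeR adjusted p = 0.0531), where ROBO3 and PTPRZ1 stood just inside it (edgeR adjusted p = 0.0474 and 0.0471). L1CAM was inside the threshold with RLE size factors, with no low-count filter and with DESeq2. It was outside with limma voom and without replicate number as a block (edgeR adjusted p = 0.9997 without the block). With single libraries left out its log2 fold change ran from 0.95 to 1.58 (edgeR adjusted p from 0.0184 to 0.247). Here and below, a fit with soft-to-soft replicates 1 and 2 left out rests on replicate 3 alone for that condition. In that fit the log2 fold change of L1CAM was 1.27. In bulk RNA a change in the number of cells that express a gene and a change in its RNA per cell cannot be told apart.

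ROBO3 had the lowest counts of the 6 and the same order of conditions as L1CAM. Its counts in replicates 1, 2 and 3 were 116, 177 and 130 in stiff-to-soft, 106, 76 and 106 in LPA-to-soft, 56, 115 and 53 under LPA-to-FAKi and 34, 32 and 49 under soft-to-soft. Raw counts of soft-to-soft 1 and 2 may be on another scale, as said above. In CPM these were 1.05, 1.75 and 1.28 in stiff-to-soft, 0.963, 0.730 and 0.885 in LPA-to-soft, 0.713, 0.935 and 0.668 under LPA-to-FAKi and 0.455, 0.509 and 0.429 under soft-to-soft. Stiff-to-soft was highest and soft-to-soft lowest within 3 of 3 replicate numbers, and soft-to-soft overlapped with none of the other conditions. Against soft-to-soft, ROBO3 had log2 fold changes of 1.53 ± 0.293 in stiff-to-soft, 0.91 ± 0.292 in LPA-to-soft and 0.73 ± 0.294 in LPA-to-FAKi. These share the soft-to-soft libraries, and without replicates 1 and 2 of soft-to-soft they were 1.56, 0.94 and 0.76.

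PTPRZ1 ran the other way, with its highest level in soft-to-soft. It stood at 22.4, 4.40 and 14.1 CPM under stiff-to-soft, 35.1, 8.73 and 26.1 CPM under LPA-to-soft, 10.1, 7.04 and 18.4 CPM under LPA-to-FAKi and 49.4, 23.6 and 35.6 CPM under soft-to-soft. Soft-to-soft was highest within 3 of 3 numbers, and stiff-to-soft and LPA-to-FAKi each lay wholly below it. Replicate 2 was the lowest library of each condition. Mean levels were 13.6 ± 9.01 CPM for stiff-to-soft, 11.9 ± 5.88 CPM for LPA-to-FAKi and 36.2 ± 12.9 CPM for soft-to-soft (SD, n = 3 each). The log2 fold change against soft-to-soft was -1.60 ± 0.301 in stiff-to-soft, -0.79 ± 0.294 for LPA-to-soft and -1.61 ± 0.302 for LPA-to-FAKi. Without soft-to-soft replicates 1 and 2 these were -1.18, -0.37 and -1.18, the middle one moving by over 1.5 times.

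NGFR was low in LPA-to-FAKi alone. It had 12.5, 14.0 and 37.8 CPM in replicates 1, 2 and 3 of LPA-to-FAKi, against 49.8, 36.1 and 55.2 CPM in those of LPA-to-soft. Under stiff-to-soft it had 44.3, 40.9 and 53.7 CPM, and under soft-to-soft 49.4, 34.0 and 66.4 CPM. LPA-to-FAKi was lowest within 3 of 3 numbers, but its replicate 3 lay above replicate 2 of LPA-to-soft and of soft-to-soft, so these conditions overlap. The mean was 21.4 ± 14.2 CPM in LPA-to-FAKi, against 47.0 ± 9.88 CPM for LPA-to-soft and 49.96 ± 16.2 CPM for soft-to-soft (SD, n = 3 each). The log2 fold change was -1.25 ± 0.224 against LPA-to-soft and -1.30 ± 0.224 against soft-to-soft. Within replicate numbers 1, 2 and 3, the difference of LPA-to-FAKi from LPA-to-soft was -1.99, -1.36 and -0.55 on the log2 scale. Summed leukocyte markers were at 20.3 to 47.3 CPM in LPA-to-FAKi, where NGFR and SEMA3C were low, 16.0 to 21.3 CPM in stiff-to-soft, 13.9 to 21.2 CPM in LPA-to-soft and 16.1 to 20.9 CPM in soft-to-soft, with 3 of 6 at 1 CPM or more and CD3E at 0. Summed endothelial markers were at 5.74 to 15.9 CPM in LPA-to-FAKi, 11.1 to 37.8 CPM in stiff-to-soft, 14.5 to 23.4 CPM in LPA-to-soft and 11.1 to 22.0 CPM in soft-to-soft, with 2 of 6 at 1 CPM or more. Their part in the result was not tested. The other differences of NGFR were close to 0, at -0.06 ± 0.218 where stiff-to-soft and at -0.05 ± 0.217 where LPA-to-soft was set against soft-to-soft.

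SEMA3C, the secreted ligand, was also lowest in LPA-to-FAKi, with a smaller difference. It stood at 26.8, 16.5 and 19.4 CPM under LPA-to-FAKi, 36.8, 17.6 and 22.8 CPM under LPA-to-soft, 38.1, 20.8 and 27.1 CPM under stiff-to-soft and 41.0, 22.8 and 26.4 CPM in soft-to-soft. LPA-to-FAKi was lowest within 3 of 3 numbers, while the conditions overlapped because the numbers differed more than the conditions did. The log2 fold change of LPA-to-FAKi was -0.51 ± 0.0784 against soft-to-soft and -0.27 ± 0.0782 against LPA-to-soft. Without soft-to-soft replicates 1 and 2 the first was -0.44. Stiff-to-soft stood at -0.06 ± 0.0779 and LPA-to-soft at -0.24 ± 0.0780 against soft-to-soft.

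NRP1, the receptor that binds class 3 semaphorins and also vascular endothelial growth factor A, had no order of conditions that held within every number. It stood at 6.76, 8.84 and 6.74 CPM under stiff-to-soft, 6.41, 10.5 and 7.25 CPM under LPA-to-soft, 10.1, 15.0 and 7.61 CPM under LPA-to-FAKi and 5.53, 16.9 and 5.59 CPM under soft-to-soft. Replicate 2 was the highest library of each condition, and soft-to-soft held both the highest and the lowest library of all. LPA-to-FAKi lay above LPA-to-soft within 3 of 3 numbers, by 0.65, 0.51 and 0.07 on the log2 scale, with a log2 fold change of 0.41 ± 0.216. Against soft-to-soft the log2 fold changes were -0.16 ± 0.219 for stiff-to-soft, -0.07 ± 0.218 for LPA-to-soft and 0.34 ± 0.217 for LPA-to-FAKi. Without soft-to-soft replicates 1 and 2 they were 0.16, 0.26 and 0.67, so the first pair changed sign.

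**Figure D2:**
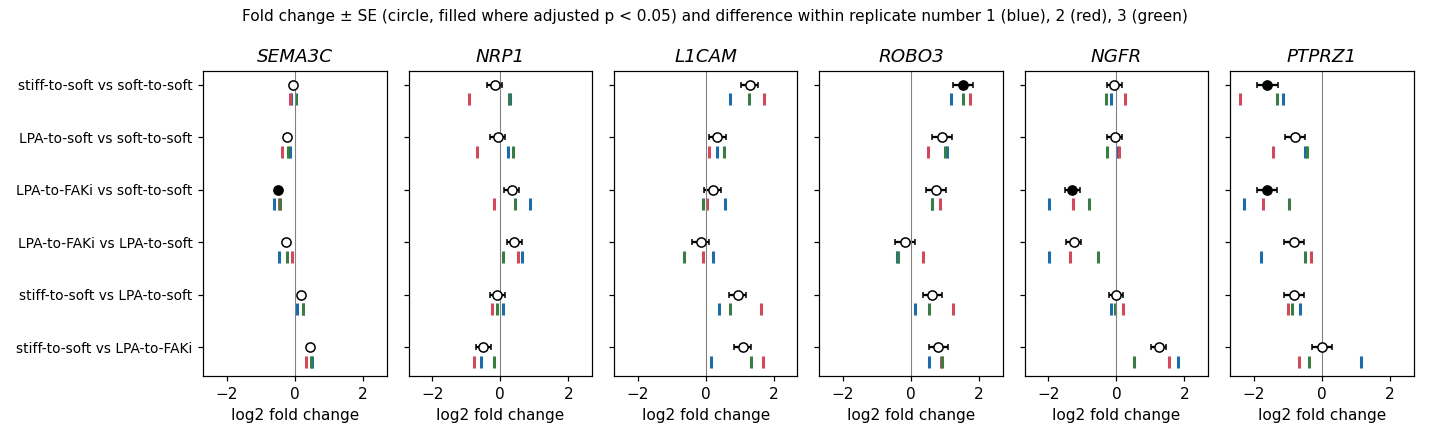
Log2 fold change ± SE of each gene in the 6 comparisons of conditions (circles, filled where the edgeR adjusted p is under 0.05), with the differences within replicate numbers 1, 2 and 3 as coloured ticks below. Filled circles stand for ROBO3 and PTPRZ1 between stiff-to-soft and soft-to-soft, and for SEMA3C, NGFR and PTPRZ1 in LPA-to-FAKi against soft-to-soft.

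In counts of calls, the comparison of stiff-to-soft with soft-to-soft held 1 of the 6 genes called higher, ROBO3, and 1 called lower, PTPRZ1. Over all genes 0.583% were called, 0.24% higher and 0.343% lower. LPA-to-FAKi against soft-to-soft held 0 called higher and 3 called lower, SEMA3C, NGFR and PTPRZ1, where 0.564% of all genes were called, 0.155% higher and 0.408% lower. The members were chosen with these comparisons known, so nothing is read from these shares. Without replicate number as a block edgeR called 0 of the 6 in both comparisons, with adjusted p from 0.9985 to 0.9997. With the block, the first count lay between 0 and 3 when single libraries were left out, and was 0 without any of 9 of the 12, namely stiff-to-soft 2 or 3, any LPA-to-soft library, LPA-to-FAKi 2 or any soft-to-soft library. Over all genes 7 to 75 were called in those 9 fits, against 90 with all 12 libraries. The second lay between 0 and 3, and was 0 without LPA-to-FAKi 1 or 2, soft-to-soft 1 or 3, or stiff-to-soft 3, and 1 without LPA-to-soft 2. Where it was 0, from 0 to 30 of all genes were called, and 44 without LPA-to-soft 2, against 87 with all 12 libraries. Fewer of all genes were called in each of these fits, but the counts did not always move together. Without LPA-to-FAKi 3 the first comparison held 1 of the 6, PTPRZ1, with 96 of all genes called. Without stiff-to-soft 1 it held L1CAM and PTPRZ1, with 86 of all genes called. In the second comparison without soft-to-soft 2, the 3 called were NGFR, SEMA3C and NRP1. PTPRZ1 was not among them, with 307 of 15797 genes called over all. Over these fits the log2 fold change in the first comparison ran from 1.36 to 1.69 for ROBO3 and from -1.93 to -1.35 for PTPRZ1. In the second it ran from -1.70 to -1.03 for NGFR, from -1.86 to -1.25 for PTPRZ1 and from -0.57 to -0.45 for SEMA3C.

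LPA-to-FAKi against LPA-to-soft asks what FAK inhibition at replating changed after the same conditioning. Its fold changes compare these conditions, while the model's spread and replicate terms also draw on the other libraries. The edgeR fit called 0 of the 6 genes and 0% of all genes, with 3 of the 6 at an unadjusted p under 0.05. NGFR had the smallest adjusted p of the 6 (edgeR adjusted p = 0.0752, lower in 3 of 3 pairs), with SEMA3C at 0.106 and PTPRZ1 at 0.147, each as an edgeR adjusted p and each lower in 3 of 3 pairs. DESeq2 called NGFR and SEMA3C, with 7.97% of all genes called, and limma voom called NGFR, with 0.24%. NGFR was also called by edgeR without LPA-to-FAKi replicate 3, with 0.393% of all genes called, or without soft-to-soft replicate 2, with 4.05%. With only the libraries of these conditions edgeR called none of the 6. The NGFR log2 fold change ran from -1.63 to -0.97 when single libraries were left out (edgeR adjusted p from 0.0132 to 0.316). PTPRZ1 had a log2 fold change of -0.82 ± 0.298, and one from -1.09 to -0.44 in these fits. The median log2 fold change of the 6 was -0.22, against -0.004 over all genes, of which 3439 had an unadjusted p under 0.05. Since the 6 were chosen with these values known, nothing is read from this difference.

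Stiff-to-soft against LPA-to-soft compares the 2 routes to the learned class. Here edgeR called 0 of the 6 genes, against 0.00648% of all genes, and 4 of the 6 had an unadjusted p under 0.05. L1CAM had a log2 fold change of 0.95 ± 0.251 (edgeR adjusted p = 0.452), ROBO3 of 0.63 ± 0.28 (0.526) and PTPRZ1 of -0.81 ± 0.294 (0.497), the values in brackets being edgeR adjusted p. L1CAM and ROBO3 lay higher and PTPRZ1 lower in stiff-to-soft within 3 of 3 numbers. DESeq2 called L1CAM, with 0.428% of all genes called, and voom called none. The median log2 fold change of the 6 was 0.08, against 0.001 over all genes, of which 1454 had an unadjusted p under 0.05. Nothing is read from these shares, as the 6 were chosen with this comparison known.

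Stiff-to-soft against LPA-to-FAKi also had 0 of the 6 genes called by edgeR, against 0.0324% of all genes (0.00648% higher and 0.0259% lower), with 5 of the 6 at an unadjusted p under 0.05. NGFR stood at 1.24 ± 0.224 and SEMA3C at 0.44 ± 0.0782 (edgeR adjusted p = 0.0725 for each), both higher in stiff-to-soft within 3 of 3 numbers. L1CAM stood at 1.09 ± 0.254 (edgeR adjusted p = 0.128). DESeq2 called these 3 genes, with 2.24% of all genes called, and voom none. With only the libraries of these conditions in the edgeR fit, NGFR and SEMA3C were called, with 1.71% of all genes, and so they were without soft-to-soft replicate 2, with 1.23%. Without LPA-to-FAKi replicate 3 NGFR was called, with 30 of 15781 genes called over all. The median log2 fold change of the 6 was 0.62, against -0.004 over all genes, of which 1923 had an unadjusted p under 0.05. As the 6 were chosen with this comparison known, nothing is read from the gap.

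LPA-to-soft against soft-to-soft asks what LPA conditioning left behind. With edgeR 0 of the 6 genes and 0% of all genes were called, 3 of the 6 having an unadjusted p under 0.05, and DESeq2 and voom called none of the 6. ROBO3 and SEMA3C each had an edgeR adjusted p of 0.508 and PTPRZ1 one of 0.556. ROBO3 lay higher and SEMA3C and PTPRZ1 lower within 3 of 3 numbers. The median log2 fold change of the 6 was -0.06, against -0.01 over all genes, of which 1231 had an unadjusted p under 0.05. Here too the 6 were chosen with the values known, and nothing is read from them as a group.

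Ordered by mean level, L1CAM and ROBO3 ran from stiff-to-soft through LPA-to-soft and LPA-to-FAKi down to soft-to-soft. NGFR and PTPRZ1 ran from soft-to-soft through LPA-to-soft and stiff-to-soft down to LPA-to-FAKi, and SEMA3C from soft-to-soft through stiff-to-soft and LPA-to-soft down to LPA-to-FAKi. NRP1 ran from LPA-to-FAKi through soft-to-soft and LPA-to-soft down to stiff-to-soft. In the edgeR model of all 12 libraries no neighbours in these orders were called apart. Under the alternatives above edgeR called NGFR between the neighbours stiff-to-soft and LPA-to-FAKi, and NRP1 between LPA-to-FAKi and soft-to-soft. DESeq2 called L1CAM between stiff-to-soft and LPA-to-soft, NGFR between stiff-to-soft and LPA-to-FAKi, and SEMA3C between LPA-to-FAKi and LPA-to-soft. The highest mean was 2.93 times the lowest for ROBO3, 3.05 times for PTPRZ1, 2.46 times for L1CAM, 2.33 times for NGFR, 1.46 times for NRP1 and 1.44 times for SEMA3C.

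Taken as classes, the learned libraries overlapped with the others for each of the 6 genes. The edgeR fit of the classes called 0 of them, against 0.00648% of all genes, with 2 at an unadjusted p under 0.05, as had 1535 of all genes, and DESeq2 and voom also called 0. L1CAM averaged 6.39 ± 2.88 CPM in learned libraries and 3.68 ± 0.694 CPM in the others (SD, n = 6 each, log2 fold change 0.78 ± 0.258, edgeR adjusted p = 0.368). ROBO3 averaged 1.11 ± 0.363 CPM in learned libraries and 0.618 ± 0.193 CPM in the others (SD, n = 6 each, log2 fold change 0.84 ± 0.266, edgeR adjusted p = 0.353). The other genes had smaller differences. NGFR stood at 0.45 ± 0.295, SEMA3C at 0.08 ± 0.119, NRP1 at -0.29 ± 0.161 and PTPRZ1 at -0.55 ± 0.408.

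**Figure D3:**
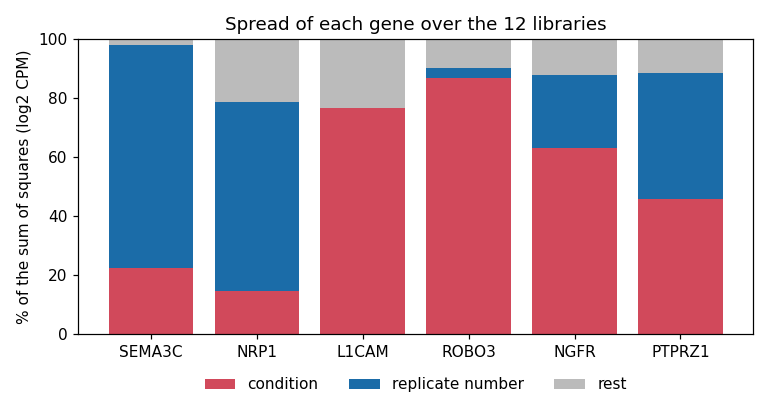
Share of the sum of squares of log2 CPM over the 12 libraries that lies between conditions, between replicate numbers and in the rest, for each gene. Condition holds most of it for L1CAM, ROBO3 and NGFR, and replicate number for SEMA3C and NRP1.

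How the genes varied with replicate number, whose meaning the labels do not give, split them differently. SEMA3C averaged 35.7 ± 6.15 CPM in the libraries numbered 1, 19.4 ± 2.88 CPM in those numbered 2 and 23.9 ± 3.55 CPM in those numbered 3 (SD over the 4 conditions). NRP1 averaged 7.19 ± 1.98, 12.8 ± 3.75 and 6.80 ± 0.879 CPM in numbers 1, 2 and 3. SEMA3C was thus lowest and its receptor NRP1 highest in the libraries numbered 2. PTPRZ1 averaged 29.3 ± 16.9, 10.9 ± 8.63 and 23.6 ± 9.42 CPM in these numbers and NGFR 39.0 ± 17.8, 31.2 ± 11.9 and 53.3 ± 11.8 CPM. An edgeR test of replicate number at fixed condition called these 4 genes (adjusted p = 1.82e-05 for SEMA3C, 0.00200 for PTPRZ1, 0.00345 for NRP1 and 0.00725 for NGFR) and not L1CAM (0.989) or ROBO3 (0.606). The background was 52.3% of all genes called, a share to read the 4 of 6 against. Replicate number held 75.7% of the sum of squares for SEMA3C and 63.9% for NRP1, against 0.0946% for L1CAM and 3.35% for ROBO3.

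With the mean of each replicate number taken off, the 6 genes fell into patterns over the 12 libraries that are given as a description, since the libraries share their conditions. L1CAM and ROBO3 moved together (Pearson r = 0.857), as did NGFR and SEMA3C (0.823). PTPRZ1 ran against both L1CAM (-0.625) and ROBO3 (-0.684), and NGFR against NRP1 (-0.751). The ligand SEMA3C and the receptor NRP1 stood at -0.497. Of 15436 other genes, those most like L1CAM were PODXL, which encodes the sialomucin podocalyxin, CALU and the ephrin EFNA5 (r = 0.942, 0.939 and 0.939). Those most like ROBO3 were SCRN1, JPH2 and the transcription factor ETS1 (r = 0.945, 0.943 and 0.935). PTPRZ1 was most like SUSD4, DZIP1L and the kinase SIK1 (r = 0.981, 0.981 and 0.978). NGFR was most like C12orf57, FIBIN and SUCLG2 (r = 0.967, 0.965 and 0.958). SEMA3C was most like the serine protease HTRA1, the homeobox gene BARX2 and MXD3 (r = 0.958, 0.952 and 0.948), and NRP1 most like the glucocorticoid receptor NR3C1, FAM83H and LOC284889 (r = 0.968, 0.959 and 0.955).

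Partners of the 6 proteins were measured in the same libraries. In 7 lists of guidance and neural adhesion genes, 84 of 110 genes other than the 6 were tested. Between stiff-to-soft and soft-to-soft, edgeR called 1 higher and 1 lower of the 84 (37 with positive fold changes, median log2 fold change -0.01, against a median of -0.002 over all genes). The gene that rose was PTPRG, the closest relative of PTPRZ1 among receptor phosphatases, at 11.7 ± 3.03 CPM against 7.42 ± 2.04 CPM (SD, n = 3 each, log2 fold change 0.65, edgeR adjusted p = 0.0449, and 0.9997 as the adjusted p without the block). The gene that fell was the ephrin receptor EPHB3, at 18.2 ± 11.4 CPM against 28.6 ± 13.1 CPM (log2 fold change -0.71, edgeR adjusted p = 0.0232, and 0.9997 as the adjusted p without the block). In LPA-to-FAKi against soft-to-soft, 0 rose and 1 fell (29 positive, median -0.17, against 0.002 over all genes). It was SEMA3F, a class 3 semaphorin that binds NRP2, at 49.8 ± 9.08 CPM against 63.4 ± 15.4 CPM (log2 fold change -0.34, edgeR adjusted p = 0.0390, and 0.9985 as the adjusted p without the block). With single libraries left out, the count of list genes called ran from 0 to 4 between stiff-to-soft and soft-to-soft, and was 0 without stiff-to-soft 2 or 3, LPA-to-soft 3, LPA-to-FAKi 2 or soft-to-soft 2 or 3. In LPA-to-FAKi against soft-to-soft it ran from 0 to 3, and was above 0 only without stiff-to-soft 1, LPA-to-soft 1, LPA-to-FAKi 3 or soft-to-soft 2. In the other 4 comparisons of conditions and between the classes edgeR called 0 of the 84, with 8 to 25 at an unadjusted p under 0.05, where 1231 to 3439 of all genes had one. DESeq2 called from 1 to 9 of the list genes there, with 66 to 1231 of all genes called, and voom called 0. Without soft-to-soft 2 edgeR called 4 list genes in LPA-to-FAKi against LPA-to-soft and 4 in stiff-to-soft against LPA-to-FAKi, with 639 and 195 of all genes called.

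**Figure D4:**
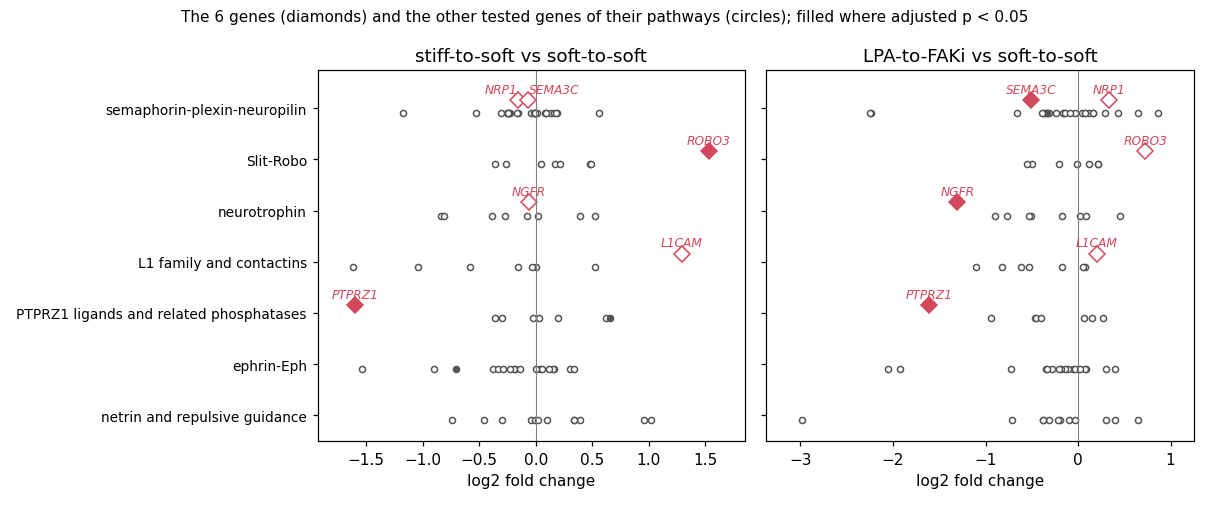
Log2 fold change of the 6 genes (red diamonds) and of the other tested genes of the 7 lists (grey circles) for stiff-to-soft over soft-to-soft (left) and LPA-to-FAKi over soft-to-soft (right), filled where the edgeR adjusted p is under 0.05. Beside the 6 genes, the filled circles are PTPRG and EPHB3 on the left and SEMA3F on the right.

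By list, the semaphorin, plexin and neuropilin genes had 25 tested members besides SEMA3C and NRP1, of which 1, SEMA3F, was called in any comparison of conditions. The plexin PLXND1, through which SEMA3C can signal, lay between 18.3 and 38.7 CPM over the 12 libraries, and NRP2, the other neuropilin, between 16.9 and 55.1 CPM. The ligands of PTPRZ1 were present, with tenascin C (TNC) between 300.9 and 574.1 CPM, midkine (MDK) between 99.9 and 213.2 CPM and pleiotrophin (PTN) between 3.05 and 13.1 CPM. Of the neurotrophin genes none of 8 tested was called between conditions. The kinase receptor NTRK2 lay between 10.3 and 55.3 CPM, while NTRK3 had 0 counts in every library. Of the Slit and Robo genes none of 7 was called, with ROBO1 between 21.4 and 39.1 CPM and NELL2, a ligand of ROBO3, between 0.244 and 1.67 CPM. Among L1 relatives and contactins none of 7 was called, and CHL1, the relative closest to L1CAM, had at most 4 counts. With replicate number 54 of the 84 genes were called (64.3%, against 52.3% of all genes).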

How the data were processed

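Total RNA from an RNeasy kit went into stranded TruSeq libraries, per the labels. The authors deposited whole-number read counts per gene symbol. Per the submitters' processing notes cutadapt, FastQC, STAR, HTSeq and DESeq2 were used with the build hg19. Tool versions, strand setting and annotation were not given in the sources used here, and antisense reads at L1CAM, NGFR and NRP1, where GENCODE 29 has antisense genes over exons, cannot be told apart if strand was not used. L1CAM also shares 439 bp of exon with U52112.1, a protein-coding gene on the same strand, which strand does not resolve. That gene had no row in the count table. A second deposited table, of normalized values, was not used.

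The tests on counts used edgeR 4.0.16 under R 4.3.3 (quasi-likelihood F test, TMM scaling, edgeR's low-count filter by condition) in a model of 4 conditions plus replicate number over all 12 libraries, or of 2 classes plus replicate number. The block was used because the genes are read paired by number. After condition means were taken off, libraries with the same number, which comes from the sample titles, correlated with r from 0.312 to 0.659 over 18 pairs, against -0.517 to 0.0372 over 36 other pairs. What is left of the 3 libraries of a condition then sums to 0. This ties the values of the other pairs to those of the same-number pairs, so they add no separate support for the block. No 2 libraries held identical values. DESeq2 1.42.0 and limma 3.58.1 (voom) were alternatives, and the fit was tested on simulated data. Log2 CPM used a prior count of 2.

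The members, lists and motifs were chosen with earlier results of these data known. Genes named are the 6 members, up to 4 called genes per list, and the 3 most alike genes per member. The lists also held markers of other cell types, and some listed genes are not reported here. The mean CPM of 8 fibroblast markers reached 19.0 (COL1A1), of 6 endothelial markers 16.2 (CDH5) and of 6 leukocyte markers 17.0 (CD68), while PECAM1 and PTPRC had at most 4 and 6 counts.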

Additional observations from a re-analysis of the deposited data

Results flagged for a closer look

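L1CAM in LPA-to-FAKi replicate 1 lay at 5.09 CPM, far from the other 5 libraries of the class that had not learned, which lay between 3.28 and 3.46 CPM. Its gap to the nearest of them took 0.896 of the range, above Dixon's critical value for 6 libraries. Chance flags about 1 in 20 groups, and 12 groups were examined here. Without that library the log2 fold change of L1CAM in LPA-to-FAKi against soft-to-soft was -0.11, where it was 0.20 with it. The cause was not tested.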

How the results depend on the processing

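Of 840 log2 fold changes of single genes under the alternatives, 736 kept their direction and their side of the threshold, 55 were no longer called, 27 became called and 22 changed sign. With no replicate block edgeR called 0 of the 6 genes in every comparison of conditions or classes. Against the 2 calls between stiff-to-soft and soft-to-soft, voom called 1, and edgeR called 0 with only the libraries of these conditions. The 3 calls in LPA-to-FAKi against soft-to-soft likewise became 0 with only the libraries of those conditions. This alternative uses fewer libraries. With soft-to-soft 1 and 2 left out, that condition rests on replicate 3 alone, so only fold changes are given for that fit. With the counts of the other 10 libraries divided by 2, the calls in both comparisons held. L1CAM was then also called between stiff-to-soft and soft-to-soft (edgeR adjusted p = 0.04999), as it was with RLE size factors (edgeR adjusted p = 0.0479), with no low-count filter (edgeR adjusted p = 0.0239) and with DESeq2 (adjusted p = 5.15e-05), which made the count 3. Over all genes 100, 101, 158 and 443 were called in these fits, in that order. With single libraries left out the counts in both comparisons ran from 0 to 3. In LPA-to-FAKi against LPA-to-soft the count of 0 was 1 without the low-count filter, where 25 of 19502 genes were called over all. It was 2 with DESeq2 (1231 of 15437 genes) and 1 with voom (37 of 15437). With single libraries left out it was 0 to 1, and 639 of 15797 genes were called without soft-to-soft 2. With soft-to-soft 1 and 2 left out the NGFR log2 fold change was -1.26. In stiff-to-soft against LPA-to-soft the count of 0 was 1 with DESeq2, where 66 of 15437 genes were called over all. In stiff-to-soft against LPA-to-FAKi the count of 0 was 2 without the low-count filter, where 75 of 19502 genes were called over all. It was 3 with DESeq2 (346 of 15437 genes) and 2 with only these libraries (254 of 14840). With single libraries left out it was 0 to 2, and 195 of 15797 genes were called without soft-to-soft 2. With soft-to-soft 1 and 2 left out the log2 fold change was 1.25 for NGFR and 0.44 for SEMA3C. The causes were not tested. Over all genes edgeR with the block called 90, 87 and 0 genes in stiff-to-soft, LPA-to-FAKi and LPA-to-soft against soft-to-soft, and DESeq2 called 443, 704 and 72.

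Sign changes were in values not called in the model of all libraries. With single libraries left out, stiff-to-soft over soft-to-soft ran from -0.21 to 0.11 for NGFR and -0.35 to 0.20 for NRP1. LPA-to-soft against soft-to-soft ran from -0.21 to 0.10 for NGFR and -0.25 to 0.30 for NRP1. For L1CAM, LPA-to-FAKi ran from -0.11 to 0.37 against soft-to-soft and -0.46 to 0.025 against LPA-to-soft. Stiff-to-soft against LPA-to-soft ran from -0.16 to 0.15 for NGFR and -0.21 to 0.10 for NRP1, and stiff-to-soft against LPA-to-FAKi from -0.38 to 0.28 for PTPRZ1. With soft-to-soft 1 and 2 left out NRP1 stood at 0.16 in stiff-to-soft and 0.26 in LPA-to-soft, both against soft-to-soft, and PTPRZ1 at -0.0039 in stiff-to-soft against LPA-to-FAKi and 0.15 in the learned against the other class. ROBO3 had the lowest counts of the 6, at most 177 in a library.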
